A study of Mus musculus with 12 samples.

Results

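Deletional junctions within Sμ join the 5′ end of the Sμ switch region to another position of Sμ in the same orientation, so that the DNA between the joined positions is lost from the chromosome and the switch region is shortened without a change of class. They were taken here as the junctions on chromosome 12 with a prey start between 114.657 and 114.675 Mb (coordinates of the AJ851868/mm9 hybrid genome) and the prey read on the minus strand, the strand of the IgH locus. The 12 libraries held 14434 of them among 53012 junctions, which is 36.8% of the 39213 junctions in the 300-kb IgH window (114.4 to 114.7 Mb) and 77.0% of the Sμ junctions. The other 4317 Sμ junctions were inversional.

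Class switch recombination (CSR) replaces the constant region Cμ of the heavy chain by a downstream one through breaks in paired switch (S) regions, long repetitive stretches that lie before each constant region. The cytidine deaminase AID starts these breaks on transcribed S regions, preferring cytidines in AGCT and in the wider DGYW/WRCH motifs, and end-joining pathways fuse the broken ends. Sμ is the donor when Cμ is replaced. Breaks in Sμ can also be rejoined to one another, which gives internal Sμ deletions and inversions. CSR-HTGTS-seq starts from a primer at the 5′ end of Sμ and reads out of the bait into whatever was joined to it, called the prey.

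Splenic mature B cells came from RDBC chimeric mice whose mature lymphocytes derive from TC1 ES cells of 129/SV origin. In 1 genotype, labelled WT, the IgH locus was unaltered, and in the other, labelled 3CBEsD, all 10 CTCF-binding elements at the 3′ end of IgH (3′IgH CBEs) were absent from both alleles. All cells were AID-proficient, were isolated by negative selection for CD43 and were kept for 96 h with one of the stimuli αCD40/IL4 and LPS/αIgD-dextran, with 3 libraries for each of the 4 conditions. αCD40/IL4 induces switching to Sγ1 and Sε, and LPS/αIgD-dextran to Sγ3, Sγ2b and Sγ2a. The ages of the mice and the number of ES clones or mice behind a genotype were not given in the sources used here, so p-values measure the spread between libraries. Junction lists carry no marker genes, and neither the cell type nor the deletion was checked from them.

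Single libraries held between 454 and 1931 deletional Sμ junctions, and between 1267 and 6097 junctions in the window. At these depths a share of 10% has a Wilson 95% confidence interval from 7.49 to 13.0% in the smallest library and from 8.74 to 11.4% in the largest, and 3 junctions amount to between 0.155 and 0.661%. These limits cover counting error only. 3 libraries stood apart. WT LPS/αIgD-dextran replicates 2 and 3 shared 248 pairs of bait end and prey start, 16.5% of the pairs of the smaller library and 13.2% of the larger, against 1.69 to 6.52% of the smaller library over the other 65 pairs of libraries. The 3′IgH CBEs-deleted αCD40/IL4 library of replicate 3 was the smallest and had the shortest preys (median 67.5 aligned bases) and baits (median 60 bases, 1.98% over 150 bases). It was also the only library on its sequencing run, and WT αCD40/IL4 replicate 3 was likewise alone on another run. Values without the smallest library, or without WT LPS/αIgD-dextran replicate 2 or 3, are given beside a result or under the processing where they move a difference by more than 1.5 times, turn its sign, or change whether the groups overlap. For αCD40/IL4 shares of all junctions genome-wide only the counts of each library are given.

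The bait is shown first because each junction is a position at which it stops. It spans 114668990 to 114669258 of the hybrid genome on the minus strand, which corresponds to 114664641 to 114664909 of mm9 and differs from mm9 at 1 base. In the mm9 annotation no gene overlaps it. In mm9 the constant region Ighm begins 3700 bases further along the direction of transcription, and the nearest J segment model ends 1816 bases on the other side. On the hybrid genome, on which the junctions are placed, the annotated Ighm begins at 114663589, further from the bait than in mm9. In each sequence capitals mark AGCT. The bait has 3 copies, a number that 14.7% of the stretches of this length on mm9 chromosome 12 reach or pass.
bait: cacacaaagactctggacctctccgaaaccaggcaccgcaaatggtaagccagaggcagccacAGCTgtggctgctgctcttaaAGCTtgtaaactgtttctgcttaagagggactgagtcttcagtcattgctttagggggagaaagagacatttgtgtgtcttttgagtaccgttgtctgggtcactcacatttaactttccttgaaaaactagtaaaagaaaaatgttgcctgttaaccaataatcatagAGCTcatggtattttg
Sμ holds few copies of AGCT near the bait and many in its core. Below are 240 bases from 114665381 to 114665620, inside the 1-kb bin whose share was higher by the most points in 3′IgH CBEs-deleted cells with LPS/αIgD-dextran, and 240 bases from 114668381 to 114668620, inside the bin whose share was lower by the most points. The first has 35 copies of AGCT and the second 2. At least 35 copies occur in 0.000409% of the 240-base stretches of mm9 chromosome 12, and at least 2 in 31.5%.
core of Sμ: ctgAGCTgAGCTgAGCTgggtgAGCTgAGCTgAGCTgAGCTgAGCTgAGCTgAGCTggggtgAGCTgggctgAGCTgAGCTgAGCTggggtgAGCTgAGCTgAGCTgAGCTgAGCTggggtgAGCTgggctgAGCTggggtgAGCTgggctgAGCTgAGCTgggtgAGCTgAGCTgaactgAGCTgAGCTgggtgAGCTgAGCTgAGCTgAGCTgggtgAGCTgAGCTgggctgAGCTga
between bait and core: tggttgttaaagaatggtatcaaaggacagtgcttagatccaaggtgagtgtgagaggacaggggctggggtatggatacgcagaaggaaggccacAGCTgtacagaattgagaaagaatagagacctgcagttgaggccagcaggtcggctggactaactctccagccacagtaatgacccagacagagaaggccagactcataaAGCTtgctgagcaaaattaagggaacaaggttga

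Along Sμ, the density of AGCT was between 13 and 14 copies per 100 bases in the 3 kb from 114665001 to 114668000, which hold 406 copies in all. It was 2.6 per 100 bases in the next kb downstream, 1.6 in the kb between the core and the bait, and at most 0.5 in every other kb with enough sequence to count. Deletional junctions did not simply follow this density. The 5′ flank from 114668001 to the first bait base at 114669258 held 7334 of the 14434 junctions, the AGCT-dense core 5426, and the 3′ flank from the core to the end of the region 1288. Prey starts clustered close to the bait in all 4 conditions, with a lower second rise where the core begins. In deleted cells with LPS/αIgD-dextran a further rise lay near the downstream end of the core. It reached 1.63% of the window per 100 bp, above the 1.31% of the rise where the core begins. The flanks and the core were drawn as zones after the values were seen.

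**Figure D1:**
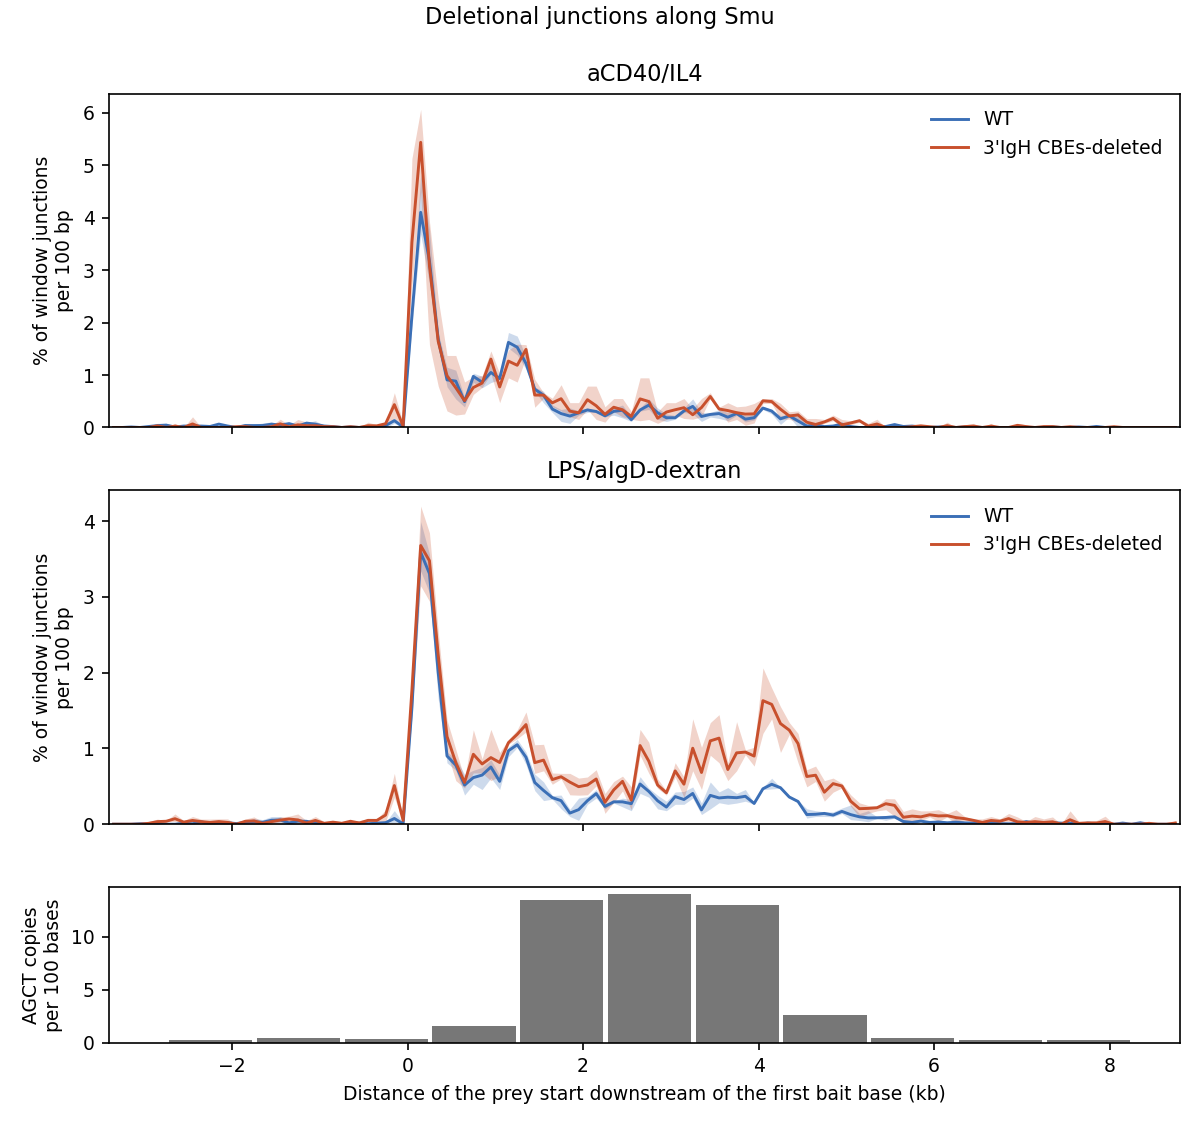
Deletional junctions along Sμ, as the percentage of all window junctions per 100 bp (upper 2 plots, one for each stimulation) against the distance of the prey start downstream of the first bait base in kb. Lines are the means of 3 libraries, blue for WT and orange for 3′IgH CBEs-deleted, and bands span the lowest and highest library. The bottom plot gives AGCT copies per 100 bases of each 1-kb bin, highest at 14. With LPS/αIgD-dextran the lines run together near the bait and part over the core and beyond it, where the deleted libraries lie higher.

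With LPS/αIgD-dextran, deletional Sμ junctions made up 30.8, 31.2 and 31.7% of the window in the WT libraries and 53.0, 53.3 and 52.9% in the 3′IgH CBEs-deleted libraries. The means were 31.2% ± 0.416 and 53.0% ± 0.208 (SD, n = 3), so that the deleted cells had 169.8% of the WT share. The groups did not overlap, and the counting intervals of single libraries ran from 29.4 to 32.9% in WT and from 50.8 to 55.1% in deleted cells. The difference of 21.8 percentage points was 21.8 and 22.0 points without WT replicate 2 or 3. With αCD40/IL4 the WT libraries had 32.0, 33.2 and 30.9% and the deleted libraries 38.3, 38.4 and 35.8%, with means of 32.0% ± 1.16 and 37.5% ± 1.48. They did not overlap either, although the intervals of single libraries did. The difference of 5.50 points was 6.35 points without the smallest library, but 1.37 points, with overlapping libraries, when only preys of at least 100 aligned bases were counted (exact permutation p = 0.6). In both stimulations an exact permutation of the genotypes (two-sided) gave p = 0.1, the smallest that 3 libraries against 3 allow, and 0.267 after Benjamini-Hochberg adjustment over 16 tests. Over both stimulations the deleted libraries were 13.7 points higher (two-sided exact permutation within each stimulation, p = 0.005, the smallest that 400 relabellings allow, adjusted p = 0.04 over 8 measures).

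These shares have the other window junctions in their denominator, and more joining within Sμ cannot be told apart from less joining elsewhere. As a percentage of all junctions genome-wide the LPS/αIgD-dextran shares were 25.6% in WT and 35.9% in deleted cells, a difference of 10.3 points without overlap in place of 21.8. The αCD40/IL4 difference turned to -1.47 points on this denominator, and the difference over both stimulations was 4.40 points (exact permutation p = 0.275). The negative sign came from the smallest library, with 454 deletional Sμ junctions among 3281 genome-wide. The other deleted αCD40/IL4 libraries had 752 of 2273 and 895 of 3307, and the WT libraries 1111 of 3703, 1273 of 5015 and 1082 of 4705. Both differences include the smallest library and are not given without it. The αCD40/IL4 lists also hold only a part of the Sγ1 junctions that the study counted, which raises every share of the window in those libraries. The αCD40/IL4 difference in these shares, its lack of overlap and the test over both stimulations rest on this reduced denominator. They were not tested on the study's full totals.

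Prey starts lay further downstream, away from the bait, in deleted cells stimulated with LPS/αIgD-dextran. The distance from the last bait base to the prey start is near the length of DNA lost, which also depends on the bases shared at the join. The median distances were 1016, 931 and 964 bp in the WT libraries and 1863, 1906 and 2189 bp in the deleted libraries. The means of these medians were 970 ± 42.9 and 1986 ± 177 bp (n = 3), without overlap (exact permutation p = 0.1, adjusted p = 0.267). The difference of 1016 bp was 996 bp without WT replicate 2 and 1012.5 bp without WT replicate 3. Junctions with a distance under 1 kb made up 46.7% ± 1.15 of these junctions for WT and 31.4% ± 2.59 for deleted cells, again without overlap.

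With αCD40/IL4 the median distance was 824, 619 and 878.5 bp in the WT libraries and 681, 731 and 1127.5 bp in the deleted libraries, which overlapped (exact permutation p = 0.8). The mean of the medians was 72.7 bp higher in deleted cells, and 67.8 bp lower without the smallest library. The mean distance, which weights the longest deletions more, was 1276 ± 147 bp in deleted cells against 1100 ± 72.5 bp in WT, without overlap. The difference of 175 bp was 90.6 bp without the smallest library. Of the junctions, 52.5% ± 3.47 in WT and 50.4% ± 5.78 in deleted cells had a distance under 1 kb (exact permutation p = 0.7), and the sign of this difference also turned without that library. Over both stimulations the median distance was 544 bp greater in deleted libraries (exact permutation p = 0.04, adjusted p = 0.107), 474 bp greater without the smallest library (p = 0.08) and 505 bp greater without WT αCD40/IL4 replicate 2 (p = 0.055).

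The longest deletions separated the genotypes under both stimulations. Distances of 4000 bp or more, which end in the last part of the core or beyond it, made up 3.51, 4.48 and 3.97% of the deletional Sμ junctions in WT with αCD40/IL4 and 6.38, 7.04 and 7.49% in deleted cells. With LPS/αIgD-dextran the WT libraries had 12.04, 10.8 and 10.5% and the deleted libraries 22.4, 21.05 and 21.5%. Under neither stimulation did the libraries overlap, and over both stimulations the share was 6.76 points higher in deleted cells (exact permutation within each stimulation, p = 0.005). As a percentage of the window these longest deletions were at 1.28% ± 0.188 in WT and 2.61% ± 0.143 in deleted cells with αCD40/IL4 and at 3.47% ± 0.213 and 11.5% ± 0.352 with LPS/αIgD-dextran, or 204.1 and 331.2% of WT. The distance classes used here were drawn after the values were seen.

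The shortest deletions behaved otherwise. Junctions 0 to 99 bp from the bait end with LPS/αIgD-dextran held 5.32% ± 0.216 of the window for WT and 5.43% ± 0.910 for deleted cells, with overlapping libraries (exact permutation p = 0.9). With αCD40/IL4 they held 6.68% ± 1.09 and 8.73% ± 0.485, without overlap. Between these extremes, distances from 2000 to under 4000 bp held 6.87% ± 0.265 of the window for WT and 14.95% ± 1.105 for deleted cells with LPS/αIgD-dextran, without overlap. The ratio of deleted to WT shares with LPS/αIgD-dextran therefore ran from 102.1% for 0 to 99 bp to 152.5% from 1000 to under 2000 bp, 217.8% from 2000 to under 4000 bp and 331.2% for 4000 bp or more. Only 2 junctions of 14434 had a distance from 0 to 9 bp.

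**Figure D2:**
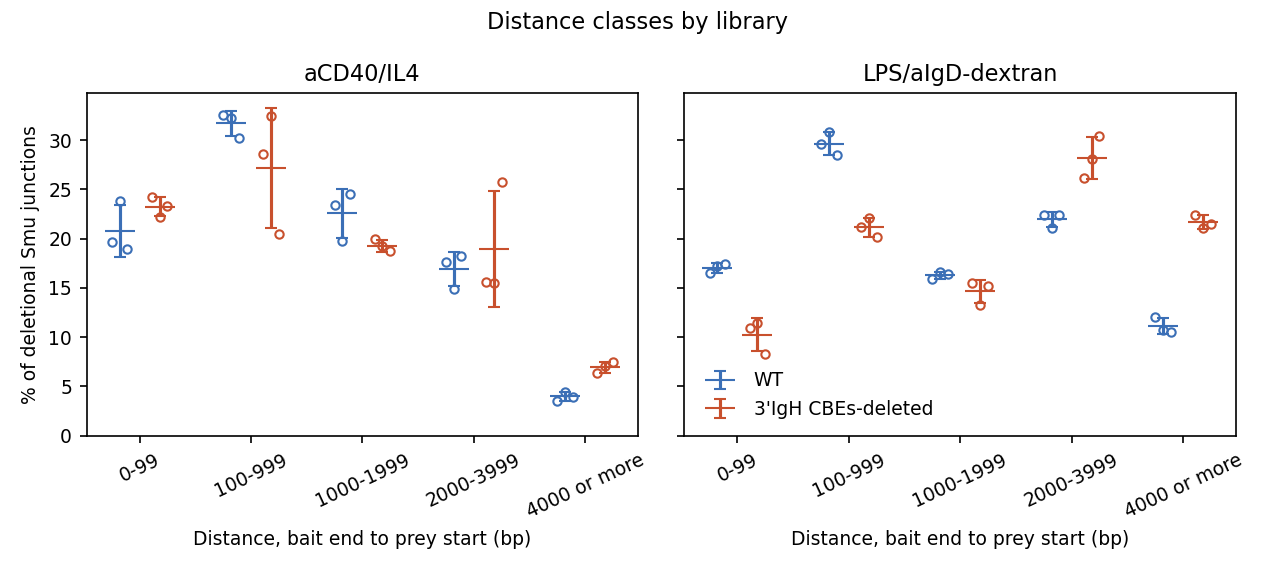
Deletional Sμ junctions in 5 classes of the distance from bait end to prey start (bp, horizontal axis), as a percentage of the library's deletional Sμ junctions (vertical axis), with αCD40/IL4 on the left and LPS/αIgD-dextran on the right. Open circles are the 3 libraries of a group, wide bars the mean and capped bars ±1 SD, blue for WT and orange for 3′IgH CBEs-deleted. In the class of 4000 bp or more the deleted libraries lie above the WT libraries under both stimulations, 6.97 against 3.99% and 21.7 against 11.1%.

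The same shift was seen in 1-kb bins of the prey position. Calling a bin took an adjusted p under 0.05 by Fisher's exact test, with the 3 libraries of a genotype pooled, and no overlap between the libraries of the genotypes. The pooled test covers the error of counting junctions and not the spread between libraries, so its p-values are not given. Over the libraries themselves an exact permutation can only give p = 0.1 in a called bin, the smallest that 3 against 3 allow. The rule of no overlap fixes that value, so it adds nothing to the call. With LPS/αIgD-dextran 5 of 15 bins (33.3%) were called, 3 of them higher (20%) and 2 lower (13.3%) in deleted cells. For comparison, the same rule applied to shares of all window junctions called 32 of 61 bins (52.5%) of the whole IgH window, 17 higher (27.9%) and 15 lower (24.6%). The bin from 114665001 to 114666000, the core's downstream end, held 12.1, 10.3 and 11.9% of the deletional Sμ junctions in the WT libraries and 19.1, 19.8 and 21.5% in the deleted libraries. The next bin downstream, 114664001 to 114665000, had 6.07% ± 0.675 in WT and 11.9% ± 0.904 in deleted cells, and the one after it, 114663001 to 114664000, which includes the 5′ end of the annotated Ighm, had 1.60% ± 0.183 and 2.90% ± 0.316.

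The bins called lower were those of the bait side. From 114668001 to 114669000 the bin held 30.8% ± 0.961 for WT and 21.5% ± 0.363 for deleted cells, and the bin from 114669001 to 114670000 held 23.2% ± 0.400 and 15.7% ± 2.11. Shares of the deletional Sμ junctions sum to 100%, so gains in some bins force losses in others. On the scale of window junctions the first of these bins was higher in deleted cells, at 11.4% ± 0.221 against 9.63% ± 0.389 without overlap, and the second was at 8.35% ± 1.14 against 7.23% ± 0.0351 with overlap. On that scale the bin from 114665001 to 114666000 had the greatest gain of the called bins in points, 7.11, and the bin from 114664001 to 114665000 the greatest in proportion, at 1.90% ± 0.192 for WT and 6.31% ± 0.471 for deleted cells or 3.33 times WT.

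With αCD40/IL4 3 of 12 bins (25%) were called, 2 higher (16.7%) and 1 lower (8.33%), and the same rule called 22 of 48 bins (45.8%) of the whole window on shares of window junctions, 14 higher (29.2%) and 8 lower (16.7%). Both bins called higher were also called higher with LPS/αIgD-dextran. The bin from 114664001 to 114665000 had 1.90% ± 0.654 of these junctions for WT and 3.74% ± 0.548 for deleted cells, and that from 114665001 to 114666000 had 7.70% ± 0.380 and 9.90% ± 1.16. The bin called lower, 114671001 to 114672000, lies upstream of the bait and had 0.9501% ± 0.204 and 0.332% ± 0.293, on 33 and 7 junctions. Without the smallest library 1 bin was called with αCD40/IL4, and without WT replicate 3 there were 6.

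Over the zones, the 3′ flank held 9.65, 8.17 and 8.18% of the deletional Sμ junctions in the WT libraries and 17.3, 16.3 and 15.9% in the deleted libraries with LPS/αIgD-dextran, and 2.61, 3.22 and 2.31% against 4.65, 5.36 and 4.85% with αCD40/IL4. The groups did not overlap under either stimulation. The AGCT-dense core held 36.04% ± 0.328 in WT and 44.8% ± 2.56 in deleted cells with LPS/αIgD-dextran without overlap, while with αCD40/IL4 it held 33.1% ± 3.73 and 35.5% ± 7.02 with overlap, a difference of 2.49 points that was -1.55 points without the smallest library. Of all these junctions, 162 lay past the switch region within the annotated body of Ighm, from 114661727 to 114663589, where a deletion would remove Cμ sequence. Their share was 0.260% ± 0.0901 for WT and 0.680% ± 0.243 for deleted cells with αCD40/IL4, and 1.05% ± 0.104 and 2.15% ± 0.272 with LPS/αIgD-dextran, without overlap in either.

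Not every prey lay downstream. In 596 junctions the prey started upstream of the bait end, at a median of 310 bp, which is not the order that a deletion on 1 chromosome leaves, and 386 of these started upstream of the first bait base. Their share was 4.04% ± 0.744 for WT and 4.36% ± 0.885 for deleted cells with αCD40/IL4, and 3.96% ± 0.698 and 4.13% ± 0.306 with LPS/αIgD-dextran, with overlapping libraries (exact permutation p = 0.6 in each). Without WT LPS/αIgD-dextran replicate 2 that difference was -0.0211 points, and without replicate 3 it was 0.578 points without overlap. One stretch stood out on the profile, the 100 bp centred 150 bp upstream of the first bait base, which was picked after its values were seen. With LPS/αIgD-dextran it held 0.0754% of the window in WT (0.0202 to 0.180) and 0.510% in deleted cells (0.353 to 0.671), and with αCD40/IL4 0.131% (0.0783 to 0.171) and 0.436% (0.172 to 0.663).

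The joined ends themselves were mostly blunt or shared a few bases. Comparing where the bait alignment stops with where the prey alignment starts on the read, 8009 junctions had an overlap (microhomology), 3477 were direct and 2948 carried inserted bases, with a median overlap of 1 base, a longest overlap of 17 and a longest insertion of 30. With LPS/αIgD-dextran, direct joins made up 24.2, 23.6 and 25.1% in the WT libraries and 21.5, 20.7 and 22.6% in the deleted libraries. Overlaps of 4 or more bases made up 9.89, 8.56 and 8.804% in WT and 10.04, 10.7 and 11.6% in deleted libraries. The groups were apart in both measures (exact permutation p = 0.1 and adjusted p = 0.267 for each), also without any 1 library. They overlapped in both measures when each prey position was counted once, when distances under 100 bp were left out and with preys of at least 100 bases, and in the overlaps of 4 or more bases also with preys of at least 50 bases, with preys downstream of the first bait base alone and without pairs found in more than 1 library.

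With αCD40/IL4 direct joins were at 25.8% ± 1.88 in WT and 25.7% ± 0.592 in deleted cells, and overlaps of 4 or more bases at 8.18% ± 0.539 and 8.21% ± 1.44, both with overlapping libraries (exact permutation p = 1). Without the smallest library overlaps of 4 or more bases were 0.832 points higher in deleted cells and the libraries did not overlap. Insertions did not separate the genotypes under either stimulation. With αCD40/IL4 they were found in 20.2% ± 1.36 of WT and 18.96% ± 2.27 of deleted junctions, and the values were 20.8% ± 0.959 and 20.8% ± 0.773 with LPS/αIgD-dextran. Within the overlaps, those of exactly 2 bases were higher in deleted cells with αCD40/IL4, at 16.2% ± 0.703 against 13.7% ± 1.005 without overlap, a class picked after its values were seen.

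The structure of a join varied with its length. Junctions with distances from 0 to 99 bp (2438 in all) were compared within each library with those of 1000 bp or more (7433), a comparison added after the values were seen. Direct joins made up 30.02% ± 4.15 of the short and 20.4% ± 2.09 of the long deletions (SD, n = 12) and were higher in the short class in 12 of 12 libraries (exact sign-flip permutation test, p = 0.000488, the smallest 12 libraries allow, adjusted p = 0.000977). Insertions made up 16.0% ± 2.44 and 23.8% ± 1.74, and overlaps of 4 or more bases 5.21% ± 1.47 and 11.3% ± 2.12, each lower in the short class in 12 of 12 libraries with the same p. The deleted LPS/αIgD-dextran libraries, which held fewer direct joins, also held more long and fewer short deletions. With distances under 100 bp left out, the LPS/αIgD-dextran difference in direct joins was -1.56 points with overlapping libraries, against -2.69 points over all junctions.

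**Figure D3:**
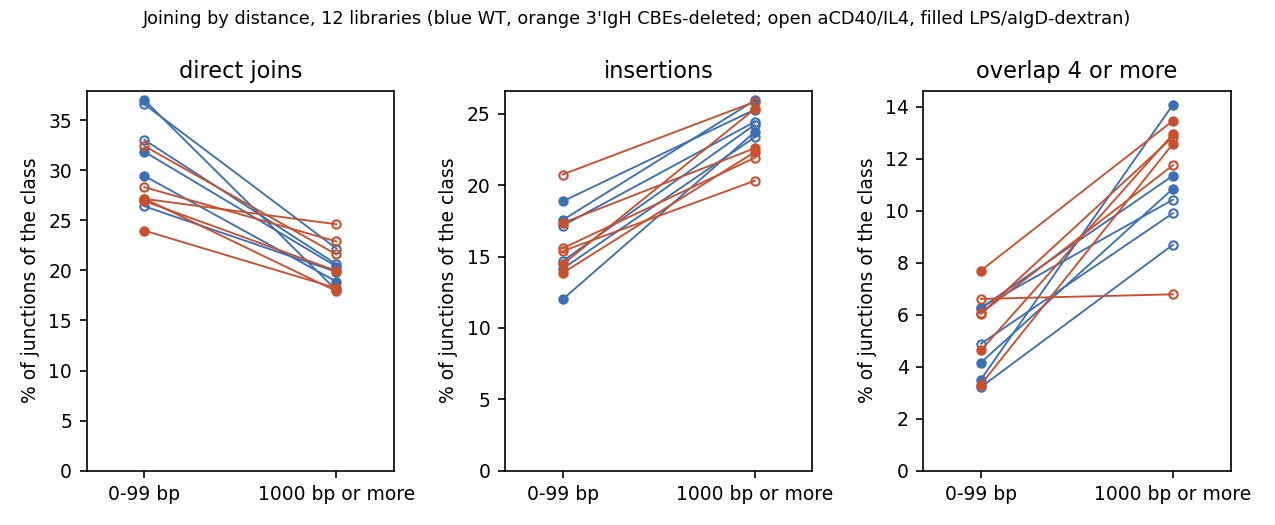
Joining structure of short (0 to 99 bp) and long (1000 bp or more) deletional Sμ junctions, as a percentage of the junctions of the class, in 3 plots for direct joins, insertions and overlaps of 4 or more bases. Each line is 1 of the 12 libraries, blue for WT and orange for 3′IgH CBEs-deleted, with open circles for αCD40/IL4 and filled circles for LPS/αIgD-dextran. All lines fall for direct joins, from 30.02 to 20.4% on average, and all rise for insertions and for overlaps.

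Deletional and inversional junctions of the same Sμ differed in structure when taken over all distances, which were not matched between the orientations. Within the libraries direct joins made up 24.3% ± 2.03 of the deletional and 18.5% ± 3.52 of the inversional junctions (higher in 11 of 12 libraries, exact sign-flip permutation test, p = 0.000977, adjusted p = 0.00195). Insertions made up 20.2% ± 1.48 and 24.2% ± 3.01 (lower in 10 of 12, exact p = 0.00488, adjusted p = 0.00651), and overlaps of 4 or more bases 9.06% ± 1.36 and 13.9% ± 2.18 (lower in 12 of 12, exact p = 0.000488, adjusted p = 0.00195). For the size of the distance the direction depended on the condition. Over all 12 libraries the medians were 1209 ± 528 bp for deletional and 1043 ± 138 bp for inversional junctions (exact sign-flip p = 0.248). In the deleted LPS/αIgD-dextran libraries the deletional median was the higher one in 3 of 3, at 2048 ± 194 against 1160 ± 40.7 bp. In WT it was the lower one in 3 of 3 libraries with LPS/αIgD-dextran, at 1028 ± 46.3 against 1150 ± 17.8 bp, and in 3 of 3 with αCD40/IL4, at 870 ± 121 against 969 ± 90.3 bp. In deleted cells with αCD40/IL4 it was lower in 2 of 3, at 889 ± 215 and 894 ± 123 bp. With 3 libraries a condition, a sign-flip test within one cannot pass the threshold, and the difference between conditions was not tested.

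Deletional joins from the same bait to the induced S regions, the products of switching itself, differed less from those within Sμ over all 12 libraries. Direct joins made up 24.3% ± 2.03 within Sμ and 23.6% ± 1.72 in the induced S regions (exact sign-flip permutation test, p = 0.162), and insertions 20.2% ± 1.48 and 20.2% ± 2.01 (exact p = 0.965). For overlaps of 4 or more bases the values over 12 libraries were 9.06% ± 1.36 and 9.86% ± 0.959 (exact p = 0.206, adjusted p = 0.275), but with αCD40/IL4 the Sμ value was lower in 6 of 6 libraries, at 8.20% ± 0.971 against 10.4% ± 0.908 (exact p = 0.03125, the smallest 6 libraries allow). With LPS/αIgD-dextran the libraries split by genotype. The Sμ value was lower in 3 of 3 WT libraries, at 9.09% ± 0.710 against 9.86% ± 0.400, and higher in 3 of 3 deleted libraries, at 10.8% ± 0.770 against 8.82% ± 0.628. This split was not tested. Insertions within Sμ were likewise higher than in the induced S regions in 3 of 3 WT libraries of each stimulation, and lower in 3 of 3 deleted libraries with αCD40/IL4 and 2 of 3 with LPS/αIgD-dextran. A p above the threshold does not show that the structures are alike.

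**Figure D4:**
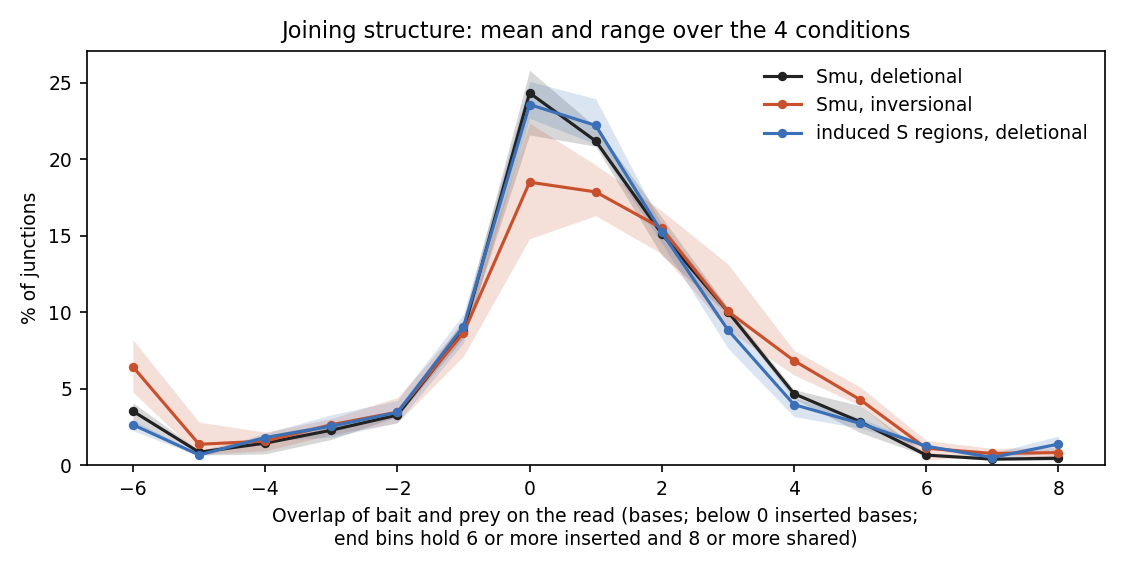
Overlap of bait and prey on the read (bases, horizontal axis, with inserted bases as negative values and the end bins holding 6 or more inserted and 8 or more shared bases) against the percentage of junctions. Lines are the means over the 4 conditions and bands their range, black for deletional Sμ junctions, orange for inversional Sμ junctions and blue for deletional junctions in the induced S regions. The inversional line lies below the others at 0 and above them at 4 and 5 bases. At 6 bases and in the end bin of 8 or more it lies below that of the induced S regions. The other two lines lie closer to each other at 0, and in the end bin of 8 or more the deletional Sμ line is the lowest.

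Baits ended most often within the first 100 bases. The median bait was 68.8 ± 1.04 bases long in WT and 66.7 ± 6.11 in deleted cells with αCD40/IL4, and 75.7 ± 1.15 and 73.3 ± 2.08 with LPS/αIgD-dextran, with overlapping libraries between genotypes (exact permutation p = 0.8 and 0.3). Between stimulations WT baits were 6.83 bases longer with LPS/αIgD-dextran, without overlap. The first aligned bait base differs by up to 2 bases between libraries, and counted from 1 common base the WT difference was 6 bases, still without overlap, while the LPS/αIgD-dextran genotypes, at 75 and 72.3 bases, no longer overlapped.

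The 5 bait ends used most, each library weighted equally, were bases 68, 77, 64, 55 and 65 from the first bait base, with between 2.51 and 2.75% of the deletional Sμ junctions each, and no genotype difference without overlap at any of them. Bases 64 and 65 lie in the first AGCT of the bait, and base 68 directly follows it. That first copy, bases 64 to 67, took 7.08% of the bait ends (1023 junctions), the second, bases 85 to 88, 3.64% (529), and the third, bases 254 to 257, 0.694% (114). In all, 11.4% of bait ends lay in an AGCT (9.04 to 12.8% over the libraries). AGCT covers 5.29% of the bait positions from base 32 to base 258, each position counted once. DGYW/WRCH motifs held 61.1% of bait ends and 41.0% of those positions. Both shares were above the share of positions in 12 of 12 libraries. The positions were not weighted by how often baits end near them, and the first and second AGCT lie where most baits ended. A preference for the motifs can therefore not be told apart here from that clustering.

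**Figure D5:**
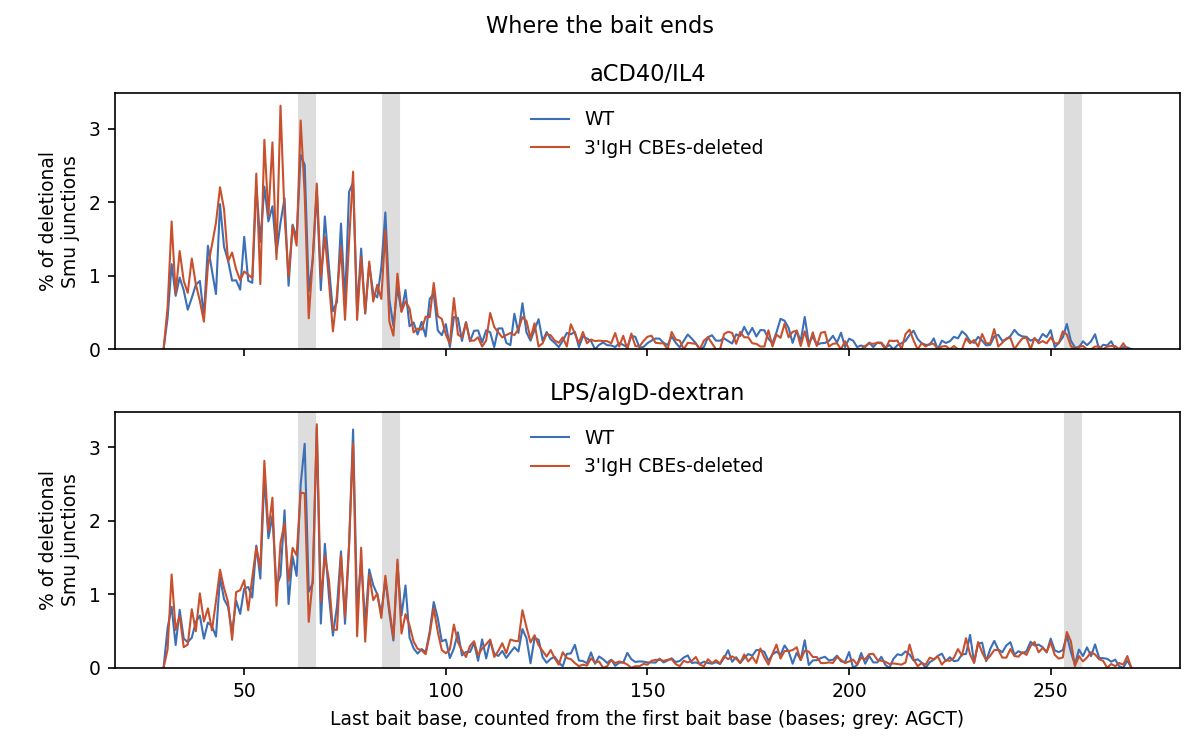
Bait ends of deletional Sμ junctions by position, counted in bases from the first bait base (horizontal axis), as a percentage of the library's deletional Sμ junctions, with αCD40/IL4 above and LPS/αIgD-dextran below. Lines are the means of 3 libraries, blue for WT and orange for 3′IgH CBEs-deleted, and grey bands mark the 3 copies of AGCT. Most ends lie before base 100 in every group, with peaks in and beside the first AGCT.

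The ends of the bait differed with the partner. Within the same libraries, AGCT held 10.9% ± 1.20 of the bait ends joined within Sμ and 13.98% ± 1.17 of those joined to induced S regions with αCD40/IL4, and 11.97% ± 0.891 and 14.2% ± 1.08 with LPS/αIgD-dextran. The Sμ value was the lower one in 6 of 6 libraries of each stimulation (exact sign-flip permutation test, p = 0.03125 in each). At the prey side, 27.7% of prey starts lay in an AGCT, against 23.2% of the positions of the same 1-kb bins weighted by their junctions, and 51.9% in DGYW/WRCH against 45.6%, both higher in 12 of 12 libraries. Positions were counted evenly over each bin and not weighted by where preys start within it. A preference for the motifs can therefore not be told apart here from clustering of preys within a bin.

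With LPS/αIgD-dextran, AGCT held 27.4, 26.8 and 26.9% of prey starts in WT and 32.2, 31.9 and 31.7% in deleted cells, without overlap (exact permutation p = 0.1, adjusted p = 0.4 over 8 tests). Of the positions of the bins used, AGCT took between 22.5 and 22.8% in the WT libraries and between 26.3 and 28.7% in the deleted ones. With αCD40/IL4 the shares were 25.3% ± 2.12 and 26.5% ± 5.18 with overlap (exact permutation p = 0.8). At the bait end AGCT held 12.4% ± 0.125 for WT and 11.55% ± 1.19 for deleted cells with LPS/αIgD-dextran, and 11.4% ± 0.612 and 10.4% ± 1.58 with αCD40/IL4, both with overlapping libraries (exact permutation p = 0.4 in each).

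The 5 most used prey starts were 114669163, 114669125, 114669002, 114669151 and 114669164, all between 94 and 256 bases from the first bait base and each with between 0.370 and 0.481% of the deletional Sμ junctions. Position 114669002 is the one of them inside an AGCT, the third copy of the bait, and 114669151 is the one outside any DGYW/WRCH. With αCD40/IL4, 114669164 had 0.231% ± 0.0488 in WT and 0.833% ± 0.619 in deleted cells and 114669002 had 0.651% ± 0.254 and 0.192% ± 0.0513, in both cases without overlap. The first of these differences, 0.602 points, was 0.248 points without the smallest library, which alone had 1.54%, and without it the libraries were also apart at 114669125 and 114669151, higher in deleted cells by 0.227 and 0.320 points. With LPS/αIgD-dextran 114669125 had 0.567% ± 0.227 and 0.204% ± 0.0982 without overlap. The other values of these positions overlapped between genotypes over all libraries, those of 114669164 with LPS/αIgD-dextran not without WT replicate 2 (-0.160 points), and all rest on 42 to 64 junctions over the 12 libraries.

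Of 12660 distinct pairs of bait end and prey start, 1145 occurred in more than 1 library and held 2732 junctions. The 5 pairs found in the most libraries were all short, with distances of 13 to 57 bp from bait end to prey start. Their joined sequences are given because the bases shared by both sides can be read from them. Capitals mark the bases that belong to bait and prey alike, in the most frequent form of each pair, with bait to the left and prey to the right.
114669211 to 114669177: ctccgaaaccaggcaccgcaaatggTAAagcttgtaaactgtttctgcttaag
114669203 to 114669151: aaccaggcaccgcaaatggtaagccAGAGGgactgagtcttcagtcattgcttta
114669139 to 114669125: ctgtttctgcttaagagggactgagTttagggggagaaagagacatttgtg
114669210 to 114669153: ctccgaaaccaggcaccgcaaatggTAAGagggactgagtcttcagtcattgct
114669202 to 114669189: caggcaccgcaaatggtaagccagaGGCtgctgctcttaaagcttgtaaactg
The first was found in 8 libraries (10 junctions, distance 34 bp), with 3 shared bases in 8 of the junctions. The second was found in 8 libraries (8 junctions, 52 bp) with 5 shared bases in all of them. The third was found in 7 libraries (8 junctions, 14 bp), with 1 shared base in 4 of the junctions. The fourth, in 7 libraries (7 junctions, 57 bp), shared 4 bases in all of them, and the fifth, in 7 libraries (7 junctions, 13 bp), shared 3 in 5 of the junctions. Overlaps ranged from -4 to 3 in the first pair, -2 to 1 in the third and -23 to 3 in the fifth, where negative values are inserted bases. Each pair was found in all 4 conditions except the third, which was found in 3 of them.

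Mismatches to the reference gave a readout of the same reads that the choice of junctions did not use. Bait bases after the primer had 2.39 ± 0.558 mismatches per 1000 in WT and 2.48 ± 0.427 in deleted cells with αCD40/IL4, and 3.31 ± 0.464 and 3.16 ± 0.515 with LPS/αIgD-dextran, with overlapping libraries (exact permutation p = 0.9 and 0.7). Prey bases had more, 16.8 against 2.84 per 1000 over all libraries and higher in 12 of 12. With LPS/αIgD-dextran prey mismatches were 17.4 ± 0.707 per 1000 in WT and 20.01 ± 1.69 in deleted cells, without overlap (exact permutation p = 0.1, adjusted p = 0.4), and the deleted preys lay more often in the repetitive core.

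In the bait, mismatches were most frequent at C and G of AGCT, where AID prefers to act. C and G inside the 3 AGCT copies had 14.2 ± 3.17 mismatches per 1000 bases and C and G elsewhere 3.13 ± 0.655 (SD, n = 12, higher in 12 of 12 libraries, exact sign-flip permutation test, p = 0.000488), while A and T had 1.51 ± 0.941 inside AGCT and 1.92 ± 0.518 outside. With the last 10 bait bases left out, where an alignment may run over the junction, the values for C and G were 9.04 ± 3.87 and 2.73 ± 0.660, again higher in 12 of 12. In the preys the order was another. C and G in AGCT had 31.01 ± 4.49 mismatches per 1000 and A and T in AGCT 37.1 ± 4.82, against 16.0 ± 2.25 and 7.65 ± 1.93 outside. Baits joined to induced S regions had 19.3 ± 4.44 mismatches per 1000 C and G in AGCT, above those joined within Sμ in 12 of 12 libraries (exact p = 0.000488). Transitions made up 182 of 407 of the mismatches at C and G in AGCT, or 44.7% (Wilson 95% confidence interval 39.96 to 49.6), and 550 of 1667 outside, or 33.0% (30.8 to 35.3). The mismatches of the 12 libraries were pooled for this, so the intervals cover counting error only and not the spread between libraries. Mismatches recurring at the same base were counted each time, and the difference was not tested. In AGCT the deleted cells had 10.6 ± 1.98 and WT 13.7 ± 3.08 with αCD40/IL4, and 15.1 ± 1.41 and 17.2 ± 2.26 with LPS/αIgD-dextran, with overlapping libraries (exact permutation p = 0.2 and 0.3).

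The stimulations were also compared within each genotype, where 3 libraries against 3 again allow no p below 0.1. The WT share of the window was 32.0% ± 1.16 with αCD40/IL4 and 31.2% ± 0.416 with LPS/αIgD-dextran, with overlap (exact permutation p = 0.4), on denominators that differ as described above. In WT the median distance was 774 ± 137 bp with αCD40/IL4 and 970 ± 42.9 bp with LPS/αIgD-dextran, and the share of distances of 4000 bp or more 3.99% ± 0.484 and 11.1% ± 0.817, both without overlap. In deleted cells the median distance was 846.5 ± 245 and 1986 ± 177 bp and the share of the longest deletions 6.97% ± 0.556 and 21.7% ± 0.704, also without overlap. Direct joins of deleted cells were at 25.7% ± 0.592 and 21.6% ± 0.931 without overlap, while in WT they were at 25.8% ± 1.88 and 24.3% ± 0.765 with overlap (exact permutation p = 0.3).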

How the data were processed

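The authors prepared CSR-HTGTS-seq libraries from sonicated genomic DNA by linear amplification from a 5′Sμ primer and nested PCR, sequenced them in paired ends, aligned the reads with Bowtie2 (named in the submitters' processing notes, version not given in the sources used here) to the AJ851868/mm9 hybrid and collapsed duplicate junctions. The deposited lists have 1 row per junction, with coordinates, strand, aligned positions on the read and quality marks. They are neither counts nor normalized, and junctions were counted here by row. The protocol has no molecular identifiers.

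Libraries were grouped by the labels. Distance was the last bait base minus the prey start, and overlap or insertion the bait's last read position minus the prey's first plus 1. Genotypes were compared on each library's shares and medians by exact permutation, two-sided (3 against 3, smallest p 0.1), by exact permutation within stimulations, and within libraries by exact sign flips. Bins of 1 kb with at least 5 junctions went through Fisher's exact test on pooled junctions, called at 0.05 after Benjamini-Hochberg adjustment where libraries did not overlap. The bin test was tested on simulated data. Named positions were the called bins, the 5 bait ends and 5 prey starts with the most junctions (libraries weighted equally) and the 5 pairs in the most libraries. Reference bases were rebuilt from the reads where at least 3 agree, matched to mm9 by stretches of 25 bases, and annotated with GENCODE genes of mm9. The first 21 bait bases, from the primer, were left out of mismatches. AGCT and DGYW/WRCH were searched on both strands. The members and lists were chosen with earlier results of these data known. Tools were Python 3.11.15 with matplotlib 3.10.9, scipy 1.17.1, pandas 2.3.3 and numpy 2.4.6. Alternatives covered the denominator, repeated positions and pairs, short preys and distances, thresholds, bin widths, the replicate block and leaving out each library.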

Additional observations from a re-analysis of the deposited data

Results flagged for a closer look

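For 4 of the 8 measures the genotype differences (3′IgH CBEs-deleted minus WT) of the stimulations did not overlap, and these 4 are listed for that reason. Differences were taken within same-numbered libraries and the 3 values of each stimulation set against the other 3. Where such values do not overlap, an exact permutation, two-sided, always gives p = 0.1, the smallest that 3 against 3 allow. That p was therefore fixed by the choice of the 4 measures and cannot decide whether the difference depends on the stimulation. Whether the numbers pair the libraries is not settled (see the runs and correlations under the processing), so this subtraction is a description.

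The share of the window differed by 21.8 points with LPS/αIgD-dextran and 5.50 points with αCD40/IL4, a gap of 16.3 points, and the αCD40/IL4 denominator lacks part of the Sγ1 junctions. The median distance differed by 1016 and 72.7 bp, a gap of 943 bp. The share of junctions under 1 kb fell by 15.3 and by 2.07 points, a gap of -13.2 points. Direct joins fell by 2.69 and by 0.165 points, a gap of -2.53 points. The smallest library, replicate 3 of the deleted αCD40/IL4 cells, enters all 4 gaps. Without it they were 15.5 points, 1083.5 bp, -16.5 points and -2.47 points.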

How the results depend on the processing

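Differences are 3′IgH CBEs-deleted minus WT in percentage points, unless another unit is given. With LPS/αIgD-dextran, the share of the window (21.6 to 22.0), the median distance (914 to 1077 bp), distances under 1 kb (-16.4 to -13.8), direct joins (-3.18 to -2.25), overlaps of 4 or more (1.29 to 2.09) and the called bins (5 to 6) kept their direction and groups without overlap whichever library was left out. The small αCD40/IL4 differences moved most. The cause of a change was not tested, and counts per library (454 to 1931) limit shares as described above. No junction carried a mark for low mapping quality, repeats, sequential junctions or duplicates, so leaving those out changed nothing. The 122 junctions with a mark for an uncut bait were kept.

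Counted against every junction genome-wide, the LPS/αIgD-dextran difference was 10.3, the αCD40/IL4 difference was -1.47 and that over both stimulations 4.40. The negative sign came from the smallest library, as described above. Bins of 500 bp gave 9 calls with LPS/αIgD-dextran in place of 5. The mean in place of the median distance gave 175 bp with αCD40/IL4. Distances under 500 bp gave -6.47 over both stimulations in place of -8.67 under 1 kb. Overlaps of 2 or more gave 2.68 with αCD40/IL4 and 2.66 over both.

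With distances under 100 bp left out, direct joins were -1.56 (LPS/αIgD-dextran) and 0.234 (αCD40/IL4), overlaps of 4 or more 1.60495 and -0.170, and preys upstream of the bait end -0.187 (αCD40/IL4). Sμ minus induced S was then -0.468 for direct joins, 0.875 for insertions and 0 bases for bait length, and deletional minus inversional distance 559.5 bp. With each prey position counted once, direct joins (-1.685) and overlaps of 4 or more (1.33) overlapped with LPS/αIgD-dextran, distances under 1 kb were -5.42 over both, and upstream preys -0.496 (αCD40/IL4) and -0.138 (both). With identical pairs counted once, insertions were 0.176 and bait length -2.83 bases (LPS/αIgD-dextran) and overlaps of 4 or more -0.0765 (αCD40/IL4). Without pairs found in more than 1 library, direct joins were 0.529 (αCD40/IL4), bait length -2.67 bases (LPS/αIgD-dextran), overlaps of 4 or more 1.51 and -0.343, and upstream preys -0.463 (LPS/αIgD-dextran), -0.327 (αCD40/IL4) and -0.395 (both). With preys downstream of the first bait base alone, insertions were 0.184, bait length -3 bases, overlaps of 4 or more 1.597 and upstream preys -1.06 (LPS/αIgD-dextran), 0.723 (αCD40/IL4) and -0.169 (both).

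With preys of at least 100 bases, the share of the window was 1.37 (αCD40/IL4). In the order LPS/αIgD-dextran then αCD40/IL4, direct joins were -3.09 and 0.0405, insertions -1.998 and 1.32, overlaps of 4 or more 2.27 and -1.75, and upstream preys -0.884 and -1.31 (-1.097 over both). Bait length was -3.83 bases (αCD40/IL4), insertions -3.67 between orientations, and Sμ minus induced S 0.363 for insertions and 0.125 bases for bait length. With preys of at least 50 bases, direct joins were 0.375 (αCD40/IL4), overlaps of 4 or more 1.28 and -0.642, and bait length 0.292 bases against induced S. Settings added after seeing the data were the bait counted from 1 common base, which gave a bait length of -2.67 bases (LPS/αIgD-dextran), the last 10 bait bases left out, and all alternatives of the contrasts within libraries, motifs and mismatches.

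Same-numbered libraries of the 2 genotypes had correlations of their deviations over 8 measures of -0.790, 0.411 and 0.249 (αCD40/IL4) and -0.647, 0.822 and 0.0888 (LPS/αIgD-dextran). In 5 of the 6 pairs the libraries shared a sequencing run, so the numbers follow the runs in part, while the correlations have both signs. They do not settle whether the numbers pair the libraries. The main tests left the replicate number out, and it was used as a block in an alternative. With the replicate block, the sign-flip permutation test of 6 pairs gave p = 0.0938 for the median distance (544 bp) and p = 0.0625 for distances under 1 kb (-8.67) over both stimulations, and p = 0.03125 for the share of the window. The exact Mantel-Haenszel test with the block called 4 and 5 bins.

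Leaving out 1 library at a time gave these ranges. With αCD40/IL4: direct joins -0.748 to 0.922, distances under 1 kb -4.17 to 1.23, median distance -67.8 to 155 bp, bait length -4.83 to 1.17 bases, overlaps of 4 or more -0.557 to 0.832, upstream preys -0.157 to 0.715, called bins 1 (without deleted replicate 3) to 6 (without WT replicate 3), mismatches per 1000 -0.176 to 0.379 in baits and -1.49 to -0.203 in preys, AGCT -1.87 to -0.335 at bait ends and -1.76 to 2.74 at preys, and DGYW/WRCH -0.474 to 3.06 and -3.05 to 1.34. With LPS/αIgD-dextran: insertions -0.553 to 0.384, bait length -3.17 to -1.17 bases, upstream preys -0.0320 to 0.578, bait mismatches per 1000 -0.400 to 0.124, and at bait ends AGCT -1.499 to -0.323 and DGYW/WRCH -3.35 to -1.747. Over both: median distance 474 to 585.5 bp and distances under 1 kb -9.73 to -7.03, both with an unadjusted exact permutation p under 0.05 except without replicate 3 of the deleted (p = 0.08 and 0.07) or replicate 2 of the WT αCD40/IL4 libraries (p = 0.055 and 0.05), overlaps of 4 or more 0.567 to 1.26 (p = 0.005 without that deleted library), and bait length -3.58 to -0.583 bases (p = 0.03 without replicate 2 of the deleted αCD40/IL4 libraries). For Sμ minus induced S: insertions -0.226 to 0.203, bait length 1.18 to 1.82 bases, and overlaps of 4 or more -1.19 to -0.468, with a sign-flip permutation p of 0.0371 without replicate 3 of the deleted LPS/αIgD-dextran libraries.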
